A study of Mus musculus with 6 samples.

Results

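Transcripts of 10 endothelial genes were measured in the distal colon of Gm31629-/- and WT mice after DSS injury. The genes were taken by symbol from a table of 27546 genes, and all 10 were found in it. 7 of them are used as genes of blood vessels (Pecam1, Cdh5, Kdr, Flt1, Tek, Plvap, and Vwf) and 3 as genes of lymphatic vessels (Flt4, Lyve1, and Prox1). RNA-Seq libraries were made from 3 Gm31629-/- mice and 3 littermate WT mice of the C57BL/6 strain (C57BL/6J in the methods), 1 library per mouse. The mice were 8 weeks old, and both groups drank 3% DSS (dextran sulfate sodium, which damages the epithelium of the colon) for 7 days and were killed on day 8. Gm31629 is a long noncoding RNA, and its locus was deleted in every cell of the knockout mice rather than in endothelium alone. No untreated mice were measured, so each comparison is between genotypes under injury. Because whole tissue was sequenced, a change in the number of endothelial cells and a change in RNA per endothelial cell cannot be told apart.

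Values are FPKM, which are fragments divided by gene length and by library depth, so levels of different genes can be set side by side. The libraries held an estimated 17928000 to 18844600 mapped fragments each. Fragments recovered per gene with this estimate summed to 18964331 to 19935233, more than the estimate in each library. The reason was not tested, so fragment numbers given here are approximate. The methods name male mice. Xist, however, was at 8.35 to 13.8 FPKM in 5 of the 6 libraries and at 0.0061 FPKM in Gm31629-/- mouse 1, and transcripts of 4 Y-linked genes were present in that mouse alone. For the 3 lymphatic genes, which were highest in this library, values as deposited are given without it as well. The methods also speak of pooled RNA, whereas the table holds a column per mouse, and the columns were treated as separate mice. Transcripts of Gm31629 itself were not analysed here, so they could not check the genotype labels. A gene was called higher or lower at a limma adjusted p under 0.05 (Benjamini-Hochberg, over all 14657 genes with a mean of at least 0.5 FPKM) together with a change of more than 1 in either direction on the log2 scale. Fold changes were taken on log2(FPKM + 1), which understates the change of genes with low values.

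Endothelial cells line blood and lymphatic vessels and are held together by junction proteins. Vascular endothelial growth factors act through a family of receptor tyrosine kinases, of which Kdr and Flt1 are typical of blood endothelium and Flt4 of lymphatic endothelium, and the angiopoietins act through Tek. In the colon, blood capillaries with a fenestrated wall lie below the epithelium, lymphatic vessels drain the mucosa, and larger vessels run through the deeper wall. Endothelium also admits leukocytes during colitis.

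All 10 genes had higher FPKM in each of the 3 Gm31629-/- mice than in any of the 3 WT mice. Among all tested genes, the groups were separated in this direction for 36.3%. 9 of the 10 passed the filter on low values, and all 9 were called higher, where 18.4% of tested genes were called higher and 4.64% lower. Of those 9, 5 had a mean below 0.5 FPKM in WT mice and passed the filter through the Gm31629-/- mice, so this count of passing genes carries no weight of its own. Without any filter, the 9 genes were still called over all listed genes, with adjusted p of at most 0.0103. Prox1, which could not reach the fold threshold at its low level, was not. The ratio of the group means lay between 14.5 for Vwf and 22.2 for Tek for the 9 genes, and it was 5.01 for Prox1. An exact permutation test of any single gene in 3 mice against 3 cannot give a p below 0.1, and each of the 10 genes reached that value.

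**Figure D1:**
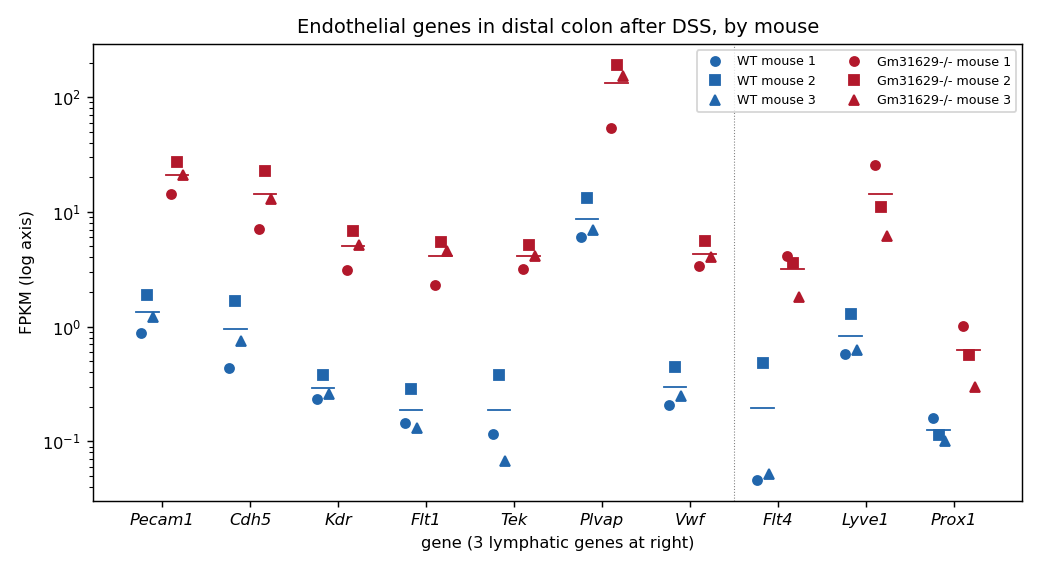
FPKM (log axis) of the 10 endothelial genes in each mouse. Blue symbols are WT mice and red symbols Gm31629-/- mice, the shape gives the mouse number, short lines are group means (n = 3), and the dotted line separates blood genes from the 3 lymphatic genes. For each gene, the 3 red symbols lie above the 3 blue ones, with the narrowest gap at Prox1.

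Pecam1 and Cdh5 encode adhesion proteins of the contacts between endothelial cells. Pecam1 is also carried by platelets and leukocytes, whereas Cdh5, or VE-cadherin, is closely restricted to endothelium. Pecam1 (ENSMUSG00000020717, chromosome 11, 106654217 to 106750628 of GRCm38) had 14.3, 27.1, and 20.8 FPKM in Gm31629-/- mice 1 to 3 and 0.877, 1.89, and 1.22 FPKM in WT mice 1 to 3. Its mean went from 1.33 ± 0.515 (SD, n = 3) in WT to 20.7 ± 6.38 FPKM (SD, n = 3) in Gm31629-/- mice, which is 3.20 as a log2 fold change (SE, the standard error, 0.27, adjusted p = 0.000350 in limma). The lowest Gm31629-/- mouse was 7.56 times the highest WT mouse. Cdh5 (ENSMUSG00000031871, chromosome 8, 104101625 to 104144511) had 7.10, 22.7, and 12.95 FPKM in Gm31629-/- mice and 0.437, 1.68, and 0.747 FPKM in WT mice. Its log2 fold change was 2.88 (SE 0.41, adjusted p = 0.00206 in limma). For both genes, mouse 2 was the highest of its group, and the groups were well apart.

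Plvap and Vwf mark features of particular vessels. Plvap forms the diaphragms of fenestrated capillaries and of caveolae, and Vwf is the clotting factor stored in endothelial granules and in platelets. Plvap (ENSMUSG00000034845, chromosome 8, 71497765 to 71511752) was the most abundant of the 10 genes in all 6 libraries. It had 53.9, 191, and 153 FPKM in Gm31629-/- mice and 5.99, 13.3, and 6.94 FPKM in WT mice, a log2 fold change of 3.67 (SE 0.49, adjusted p = 0.00167 in limma). Gm31629-/- mouse 1 had 0.282 times the Plvap level of mouse 2, the widest gap between these mice among the blood genes. Vwf (ENSMUSG00000001930, chromosome 6, 125546774 to 125686679) had 3.34, 5.62, and 4.03 FPKM in Gm31629-/- mice and 0.205, 0.443, and 0.248 FPKM in WT mice. Its log2 fold change was 2.02 (SE 0.20, adjusted p = 0.000591 in limma), and its spread among the Gm31629-/- mice was narrower than that of Plvap.

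The 4 receptor tyrosine kinases among the genes were all called higher. Kdr, or VEGFR2, is the main signaling receptor for VEGF-A, and Flt1, or VEGFR1, binds the same ligand with high affinity and also serves as a decoy. Kdr (ENSMUSG00000062960, chromosome 5, 75932827 to 75978458) had 3.10, 6.82, and 5.14 FPKM in Gm31629-/- mice and 0.233, 0.381, and 0.259 FPKM in WT mice (log2 fold change 2.17, SE 0.25, adjusted p = 0.000931 in limma). Flt1 (ENSMUSG00000029648, chromosome 5, 147561604 to 147726011) had 2.29, 5.497, and 4.58 FPKM against 0.144, 0.284, and 0.130 FPKM (log2 fold change 2.06, SE 0.26, adjusted p = 0.00144 in limma). Both receptors thus showed the same order of mice as Pecam1 within the Gm31629-/- group, with mouse 2 highest and mouse 1 lowest. Tek, or TIE2, is the angiopoietin receptor that keeps vessels quiescent when bound by angiopoietin 1. Tek (ENSMUSG00000006386, chromosome 4, 94739289 to 94874976) had 3.15, 5.19, and 4.11 FPKM in Gm31629-/- mice and 0.115, 0.377, and 0.0677 FPKM in WT mice, and the latter rest on 10, 32, and 6 fragments. Its log2 fold change was 2.11 (SE 0.20, adjusted p = 0.000554 in limma). Flt4, or VEGFR3, binds VEGF-C and VEGF-D on lymphatic endothelium. Flt4 (ENSMUSG00000020357, chromosome 11, 49609263 to 49652739) had 4.09, 3.61, and 1.82 FPKM in Gm31629-/- mice and 0.0460, 0.486, and 0.0517 FPKM in WT mice, where WT mouse 2 had 72 fragments and the others 7 and 8. Its log2 fold change was 1.78 (SE 0.27, adjusted p = 0.00262 in limma), and it was 1.95 without WT mouse 2 (limma adjusted p = 0.00774) and 1.61 without Gm31629-/- mouse 1 (limma adjusted p = 0.00551). Unlike the other 3 receptors, Flt4 was highest in Gm31629-/- mouse 1.

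RefSeq promoter windows were matched for 5 of the 10 genes (Kdr, Flt1, Flt4, Tek, and Prox1). The 250 bases before the RefSeq start of the 4 receptor genes, which were all called higher, are printed here. They are given 5′ to 3′ on the strand of the gene from GRCm38.p6. The letters GGAA, the core bound by ETS factors such as Erg and Fli1, are in capitals on either strand. The windows are chr5:75978456-75978705 (minus strand) for Kdr, chr5:147726012-147726261 (minus strand) for Flt1, chr11:49609429-49609678 (plus strand) for Flt4, and chr4:94739039-94739288 (plus strand) for Tek. RefSeq starts Flt4 downstream of the GENCODE start given above, so its window lies inside the GENCODE gene interval.
Kdr: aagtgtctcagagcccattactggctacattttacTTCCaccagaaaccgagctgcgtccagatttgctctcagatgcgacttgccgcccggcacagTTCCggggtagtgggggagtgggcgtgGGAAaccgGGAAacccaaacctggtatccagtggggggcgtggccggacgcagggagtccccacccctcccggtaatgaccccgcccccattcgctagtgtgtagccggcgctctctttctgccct
Flt1: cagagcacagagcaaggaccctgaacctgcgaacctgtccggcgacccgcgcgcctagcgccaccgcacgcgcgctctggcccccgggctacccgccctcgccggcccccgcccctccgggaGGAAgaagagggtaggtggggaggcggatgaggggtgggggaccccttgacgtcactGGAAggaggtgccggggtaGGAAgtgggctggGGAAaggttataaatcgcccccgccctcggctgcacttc
Flt4: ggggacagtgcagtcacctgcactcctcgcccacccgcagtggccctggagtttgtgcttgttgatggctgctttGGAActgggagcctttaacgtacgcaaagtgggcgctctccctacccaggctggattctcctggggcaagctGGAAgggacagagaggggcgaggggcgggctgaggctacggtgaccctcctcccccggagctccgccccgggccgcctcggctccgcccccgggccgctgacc
Tek: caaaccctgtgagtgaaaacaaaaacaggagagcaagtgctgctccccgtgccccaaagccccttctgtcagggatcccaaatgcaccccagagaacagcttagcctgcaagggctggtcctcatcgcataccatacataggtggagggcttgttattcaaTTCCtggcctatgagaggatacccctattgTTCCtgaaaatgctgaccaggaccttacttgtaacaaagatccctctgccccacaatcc
The ETS core matched 4 times in the Kdr window, 4 in that of Flt1, 2 in that of Flt4, and 2 in that of Tek. It was present in 93.4% of all 32851 promoter windows of this length, with a median of 3 matches, so these counts do not set the receptors apart. The letters TATAAA, searched on both strands, were found in the Flt1 window and in 12.4% of all windows, and AACAAAG, a motif of SOX factors, in the Tek window and in 5.03% of all windows. AGATAA, a motif of GATA factors, is in 9.99% of all windows and in none of these. GC content ran from 51.2% in the Tek window to 70.4% in the Flt1 window. A match is a run of letters and not a measured binding site.

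Lyve1 is a hyaluronan receptor of lymphatic endothelium that is also found on some tissue macrophages. Prox1 is the transcription factor that sets lymphatic identity. Lyve1 (ENSMUSG00000030787, chromosome 7, 110850607 to 110863239) had 25.7, 11.03, and 6.17 FPKM in Gm31629-/- mice and 0.574, 1.27, and 0.620 FPKM in WT mice. Its log2 fold change was 2.88 (SE 0.45, adjusted p = 0.00293 in limma). Without Gm31629-/- mouse 1, the highest, it was 2.37 (limma adjusted p = 0.00165), and the count of called genes stayed at 9 of 9. Prox1 (ENSMUSG00000010175, chromosome 1, 190118035 to 190170714) had 1.02, 0.562, and 0.298 FPKM in Gm31629-/- mice and 0.161, 0.113, and 0.101 FPKM in WT mice, which correspond to 156, 87, and 46 fragments against 25, 17, and 16. With a mean of 0.375 FPKM over the 6 mice it lay below the filter. In the fit without a filter its log2 fold change was 0.51 (SE 0.16, adjusted p = 0.0679 in limma), so it did not pass. At these levels, log2(FPKM + 1) could not give Prox1 a change above 1 even without any fragment in WT mice. The fold threshold was thus out of its reach, and the missing call says nothing beyond the adjusted p. The lowest Gm31629-/- mouse, mouse 3, had 1.85 times the Prox1 level of the highest WT mouse, so the groups were also apart without Gm31629-/- mouse 1. Of the exon bases of Prox1, 1.58% are shared with the antisense gene Prox1os, and whether strand was used in counting is not given in the sources used here.

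In order of mean level in Gm31629-/- mice, Plvap with 133 ± 71.0 FPKM stood above Pecam1 with 20.7 ± 6.38, Lyve1 with 14.3 ± 10.2, and Cdh5 with 14.3 ± 7.88 FPKM (SD, n = 3 each). Kdr, Vwf, Tek, Flt1, and Flt4 followed between 5.02 ± 1.86 and 3.17 ± 1.20 FPKM, with each neighbor in that order differing by less than the larger SD of the pair, and Prox1 was last with 0.626 ± 0.363 FPKM. In WT mice, Plvap led with 8.74 ± 3.98 FPKM, Pecam1, Cdh5, and Lyve1 had between 1.33 ± 0.515 and 0.823 ± 0.392 FPKM, and the other 6 genes were below 0.3 FPKM. Kdr, Vwf, Tek, Flt1, and Flt4 differed from their neighbors in that order by less than the larger SD of the pair as well.

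Whether the 10 genes kept their proportions was examined by dividing each by Cdh5 in the same library. These ratios overlapped between the groups for all 9 genes compared with Cdh5, but for Lyve1 and Prox1 only through Gm31629-/- mouse 1. The ratio of Pecam1 to Cdh5 was 1.61 ± 0.411 in Gm31629-/- mice and 1.59 ± 0.441 in WT mice, and that of Vwf was 0.343 ± 0.115 and 0.355 ± 0.105 (SD, n = 3 each). Kdr had 0.378 ± 0.0701 and 0.369 ± 0.155, and Plvap 9.29 ± 2.26 and 10.3 ± 3.01. The means lay further apart for Tek, with 0.330 ± 0.108 and 0.193 ± 0.0902, and for Flt1, with 0.306 ± 0.0576 and 0.224 ± 0.0912. Among the lymphatic genes, Gm31629-/- mouse 1 stood apart. The ratio of Lyve1 was 3.62 in that mouse and 0.486 and 0.477 in mice 2 and 3, against 0.967 ± 0.301 in WT mice. The Lyve1 ratio was 1.31, 0.760, and 0.830 in WT mice 1 to 3. That of Flt4 was 0.576 in mouse 1 and 0.159 and 0.140 in mice 2 and 3, against 0.155 ± 0.118 in WT mice. Prox1 had 0.143 in mouse 1 and 0.0247 and 0.0230 in mice 2 and 3, against 0.190 ± 0.158 in WT mice. Its ratio was 0.368, 0.0671, and 0.136 in WT mice 1 to 3. Without Gm31629-/- mouse 1, the ratios of Lyve1 and Prox1 were thus lower in Gm31629-/- mice than in each WT mouse.

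**Figure D2:**
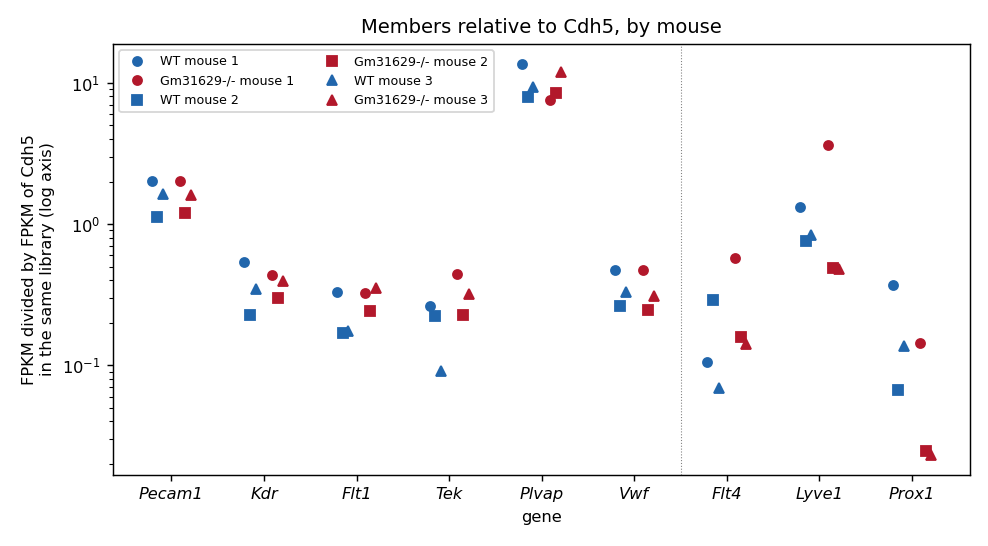
FPKM of 9 genes divided by the FPKM of Cdh5 in the same library (log axis), with WT mice in blue, Gm31629-/- mice in red, and the shape giving the mouse number. Red and blue symbols overlap for each gene, for Lyve1 and Prox1 only through Gm31629-/- mouse 1. Lyve1, Flt4, and Prox1, right of the dotted line, have Gm31629-/- mouse 1 above mice 2 and 3.

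The same question was put to a wider list of 24 other genes of blood endothelial identity, which holds none of the 10. When each library was scaled to the mean level of this list, none of the 9 tested genes was called, and their log2 fold changes ran from −0.09 for Plvap to 0.43 for Tek, with standard errors of 0.33 to 0.50. Lyve1 had 0.10 (limma adjusted p = 0.831) and Flt4 0.34 (limma adjusted p = 0.319). The value of Lyve1 averages unlike mice. After scaling, its level in Gm31629-/- mouse 1 was above each WT mouse, and its levels in mice 2 and 3 were below each WT mouse. The scaled fit was not repeated without Gm31629-/- mouse 1. With this scaling, 1.55% of all tested genes were called higher and 83.3% lower, and the median of all tested genes was −2.97.

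**Figure D3:**
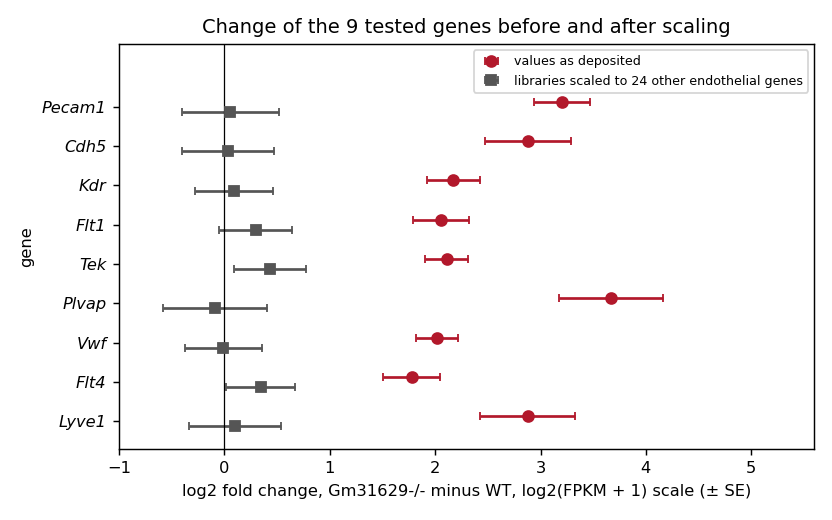
Log2 fold change (Gm31629-/- minus WT, log2(FPKM + 1) scale) of the 9 tested genes with bars for the standard error. Red circles are the values as deposited, from 1.78 to 3.67, and gray squares are the values after scaling each library to 24 other blood endothelial genes, from −0.09 to 0.43. The gray square of Lyve1 averages 1 Gm31629-/- mouse above each WT mouse with 2 below each.

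Within the Gm31629-/- group, the blood and the lymphatic genes followed different orders. All 7 blood genes were highest in mouse 2 and lowest in mouse 1, and all 3 lymphatic genes were highest in mouse 1 and lowest in mouse 3. Lyve1 in mouse 1 was 2.33 times its level in mouse 2 and 4.17 times that in mouse 3, and Prox1 1.81 and 3.41 times. Cdh5 in mouse 1 was 0.313 times its level in mouse 2, and Kdr 0.455 times. Over all tested genes, mouse 1 was the highest of the Gm31629-/- mice for 5596, mouse 2 for 6453, and mouse 3 for 2608. Of the 24 blood endothelial genes, 20 were highest in mouse 2 and 20 lowest in mouse 1. Of 10 other lymphatic genes, Ccl21a, Mmrn1, Reln, and Stab2 were highest in mouse 1 and lowest in mouse 3, and the other 6 were not highest in mouse 1. With 3 mice in the group, this difference in order is a description without a test. Mouse 1 is the library with Y-linked transcripts, and 11 of 12 smooth muscle markers were also highest in it, and their part in this pattern was not tested. In the WT group, mouse 2 was the highest for 9 of the 10 genes, all except Prox1, and for 10 of 12 smooth muscle markers.

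**Figure D4:**
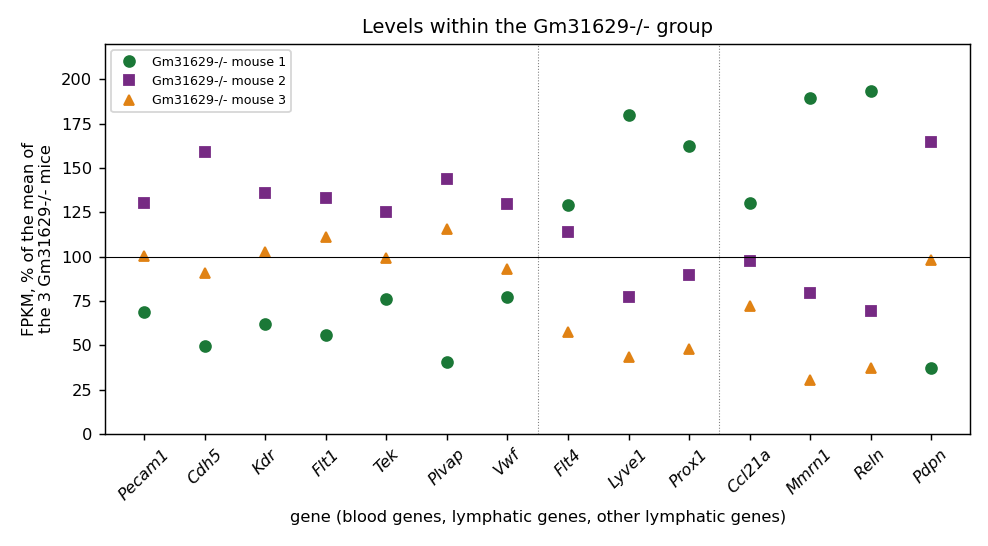
FPKM in each Gm31629-/- mouse as a percent of the mean of the 3 mice, for the 7 blood genes, the 3 lymphatic genes, and 4 other lymphatic genes, separated by dotted lines. Mouse 1 (green circles) is lowest for each blood gene and highest for Flt4, Lyve1, Prox1, Ccl21a, Mmrn1, and Reln, but lowest for Pdpn. The 4 other lymphatic genes shown are part of a list of 10, of which 4 in all were highest in mouse 1.

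Other genes of blood endothelial identity moved in the same direction. Of 24, 23 were tested and 22 were called higher, with a median log2 fold change of 1.85, where the median of all tested genes was 0.15. Eng, a TGF-beta coreceptor, had 11.02, 46.2, and 32.4 FPKM in Gm31629-/- mice and 1.46, 2.99, and 1.58 FPKM in WT mice (log2 fold change 3.18). Sox18, a transcription factor that acts upstream of Prox1 in lymphatic development, rose by 3.07, the junction gene Esam by 3.30, and the sphingosine 1-phosphate receptor gene S1pr1 by 3.23 on the same scale. Clec14a was the tested gene of this list that was not called, with a log2 fold change of 0.54 (limma adjusted p = 0.0269), and it was named after its value was seen.

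The genes of arteries and capillaries were mixed, with 6 of 12 called higher and a median log2 fold change of 1.17. The fatty acid transporter gene Cd36 rose by 3.37 and the gap junction gene Gja4 by 1.81. Which cell types carried the Cd36 transcripts was not measured. Car4 and Unc5b, the most abundant of this list, overlapped between the groups (log2 fold changes 1.31 and 0.37, limma adjusted p = 0.114 and 0.186), and Car4 is also a gene of colonocytes. Of 9 venous and leukocyte adhesion genes, 6 were called higher. Madcam1, the address molecule that gut-homing lymphocytes bind on venules, had 10.7, 16.3, and 25.3 FPKM in Gm31629-/- mice and 0.339, 0.773, and 0.593 FPKM in WT mice (log2 fold change 3.49, limma adjusted p = 0.000374). Ackr1, a chemokine-binding receptor of venules, rose by 3.11. Lrg1 overlapped between the groups (log2 fold change 0.36), and Ephb4, which epithelium also expresses, had a log2 fold change of −0.98 (limma adjusted p = 0.0112) just short of the threshold. Of 7 genes of sprouting endothelium, 4 were called higher and 1 lower. The chemokine receptor gene Cxcr4, which leukocytes also express, rose by 3.16, and the potassium channel subunit gene Kcne3, which colonic epithelium also expresses, fell by 1.98.

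Of the 10 other lymphatic genes, 7 were tested and 6 were called higher, with a median log2 fold change of 2.06. Ccl21a, a chemokine of lymphatic endothelium and of lymphoid stroma with closely related copies between which reads may be split, had 162, 121, and 89.6 FPKM in Gm31629-/- mice and 0.746, 9.26, and 1.35 FPKM in WT mice. Its log2 fold change was 5.13 (SE 0.63, adjusted p = 0.00119 in limma), and it was 1.81 after scaling to the 24 blood endothelial genes. Pdpn, which fibroblasts also express, rose by 2.96 and had −0.44 after that scaling. Reln, Foxc2, and Stab2 were below the filter, as Prox1 was, and their groups did not overlap either.

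Of 15 listed symbols of ligands, coreceptors, and partners of these receptors, 14 were in the table (Figf, an older symbol of Vegfd, was not), 12 were tested, and 7 were called higher, with a median log2 fold change of 1.17. Vegfa, the ligand of Kdr and Flt1, had 46.6, 34.2, and 35.1 FPKM in Gm31629-/- mice and 15.7, 20.3, and 13.9 FPKM in WT mice, a log2 fold change of 1.17 (SE 0.19, adjusted p = 0.00363 in limma). Vegfc, a ligand of Flt4, had a log2 fold change of 0.93 (limma adjusted p = 0.00285), under the fold threshold, and Vegfd, the other one, was called with 1.29. Angpt1, the activating ligand of Tek, had 1.01 ± 0.354 FPKM in Gm31629-/- mice and 0.00858 ± 0.00744 FPKM in WT mice (SD, n = 3 each) and a log2 fold change of 0.98 (limma adjusted p = 0.00484), which missed the fold threshold. With a pseudocount of 0.1 in place of 1, the log2 fold changes of Angpt1 and Vegfc were 3.30 and 1.36, and 10 genes of the list were called. Angpt2, its context-dependent antagonist, was called with 1.38. Tie1, the partner receptor of Tek, rose by 2.80, and Ptprb, the phosphatase that acts on Tek, by 1.85. Adm, the vascular peptide adrenomedullin, rose by 1.24. The log2 fold changes of Vegfa, Vegfc, and Vegfb (0.30, limma adjusted p = 0.243) were each smaller than those of the 9 tested endothelial genes, without a test of that difference. This does not hold for all ligands by FPKM. Vegfd had a mean of 1.71 FPKM in Gm31629-/- mice and 0.0831 in WT mice. Pgf, called with 1.16, had 1.43 and 0.0561 FPKM. With a pseudocount of 0.1, Vegfd and Pgf each had a log2 fold change of 3.23, and the 9 endothelial genes had 3.49 to 4.01. Vegfc, Vegfd, Vegfb, Pgf, Angpt1, and Angpt2 were named after their values were seen, for being ligands of these families.

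Pericytes wrap small vessels, and 7 of 8 of their genes were tested and all 7 were called higher, with a median log2 fold change of 3.66. Rgs5, a regulator of G protein signaling in mural cells, had 89.2, 54.3, and 30.2 FPKM in Gm31629-/- mice and 0.131, 0.965, and 0.246 FPKM in WT mice (log2 fold change 5.26, limma adjusted p = 0.000281). The potassium channel gene Kcnj8 rose by 4.80. After scaling to the 24 blood endothelial genes, the log2 fold changes of Rgs5 and Kcnj8 were 2.85 and 1.92. Those of Abcc9 and Mcam were 1.92 and 0.85. Other genes of the list went the other way, with −1.57 for Pdgfrb (limma adjusted p = 0.000936), −0.45 for Notch3, and −0.32 for Cspg4. With this scaling, 3 of the 7 tested genes were called higher. Rgs5 and Kcnj8 are also known from smooth muscle.

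Markers of other cell types of the colon wall moved with the endothelial genes. The summed level of 12 smooth muscle markers was 1323 to 2050 FPKM in Gm31629-/- mice and 25.7 to 45.8 FPKM in WT mice, and 10 of 11 tested were called higher, led in level by Acta2 and Actg2 (log2 fold changes 6.04 and 6.79). Of 8 fibroblast markers, 8 were called higher, among them Col3a1 and Dcn, with a sum of 203 to 567 against 17.4 to 37.6 FPKM. Of 10 enteric neuron and glia markers, 9 were called higher, led by Uchl1 and Tubb3, with a sum of 40.1 to 137 against 2.82 to 5.41 FPKM, and Elavl4 was listed at 0 in the 3 WT mice. Of 6 tested adipocyte markers, 5 were called higher, led by Cidec and Fabp4, with 61.0 to 148 against 11.8 to 22.6 FPKM. The adipocyte count was 2 without WT mouse 1 and 3 without WT mouse 2, WT mouse 3, or Gm31629-/- mouse 2. The epithelial markers summed to 11383 to 15464 FPKM in Gm31629-/- mice and 18563 to 20572 FPKM in WT mice, with 6 of 16 tested called lower, Krt8 and Car1 among them, and 1 called higher (2 without Gm31629-/- mouse 2). The part of this shift in tissue make-up in the endothelial result was not tested, and how deep into the wall each sample reached is not given in the sources used here.

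**Figure D5:**
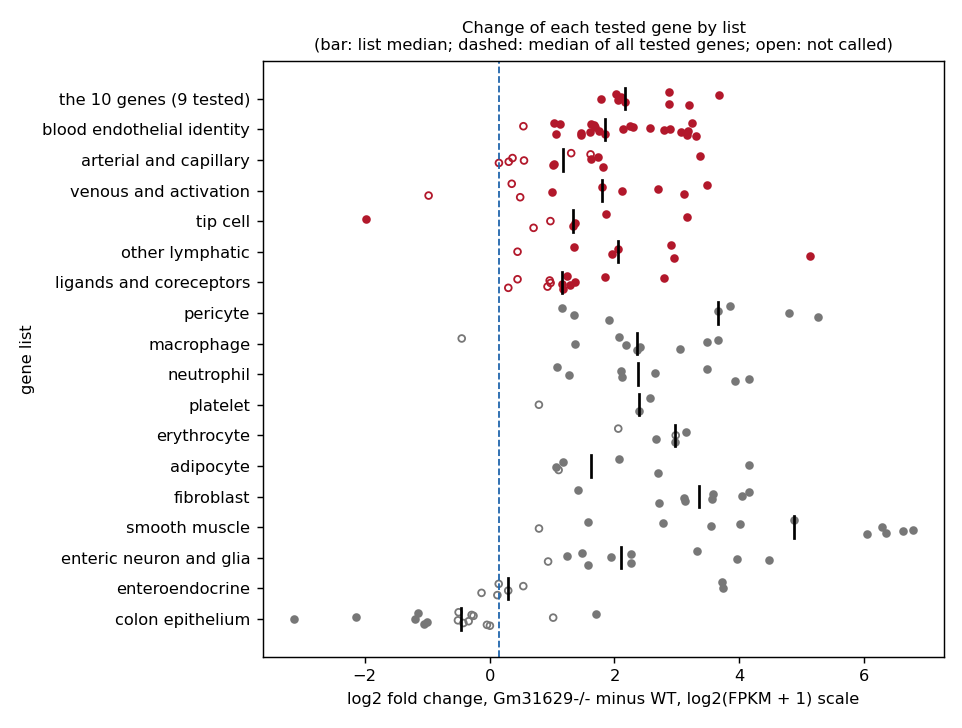
Log2 fold change (Gm31629-/- minus WT, log2(FPKM + 1) scale) of each tested gene by list, with filled symbols for called genes, open symbols for others, black bars for list medians, and a dashed line for the median of all tested genes (0.15). The endothelial lists (red) have medians of 1.17 to 2.17, the smooth muscle list 4.87, and the epithelial list −0.46.

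Some of the 10 genes are also transcribed outside endothelium, and the markers of those cells were read beside them. For macrophages, which can carry Lyve1, 8 of 9 tested markers were called higher, led by C1qa and C1qb (log2 fold changes 3.49 and 3.67), with a sum of 291 to 597 FPKM in Gm31629-/- mice and 39.5 to 48.8 FPKM in WT mice. That sum was highest in Gm31629-/- mouse 2. The resident macrophage marker Cd163 had 2.53, 1.99, and 0.768 FPKM in Gm31629-/- mice 1 to 3, the order of Lyve1. Mrc1, with 4.63, 6.57, and 3.28 FPKM, and Folr2, with 0.176, 0.210, and 0.246 FPKM, had other orders. Of the 10 macrophage markers, 7 were highest in Gm31629-/- mouse 2. For platelets, which carry Vwf and Pecam1, 3 of 8 markers passed the filter and 2 of them, Pf4 and Itgb3, were called higher. Ppbp, Itga2b, Gp6, and Treml1 were also higher in each Gm31629-/- mouse than in any WT mouse, at levels of up to 1.49 FPKM, and Gp9 and Gp1ba overlapped between the groups at up to 0.493 FPKM. Of 8 neutrophil markers, 8 were called higher, led in level by S100a9 and Ly6g, of which the latter has related copies that may share reads. Of 5 tested erythrocyte markers, 3 were called higher, and Hba-a1 and Hbb-bs were highest in Gm31629-/- mouse 1 with 887 and 1795 FPKM. No erythrocyte marker was called without Gm31629-/- mouse 1 or mouse 3, or without any single WT mouse, and 5 were called without Gm31629-/- mouse 2. With the replicate block, with no filter, and with voom, 0 were called. Enteroendocrine cells can express Prox1, and their markers Chga and Chgb overlapped between the groups (log2 fold changes 0.12 and −0.13, limma adjusted p = 0.828 and 0.824), while 2 of 7, Scg2 and Cpe, which neurons also express, were called higher. The part of these cells in the levels of the 10 genes was not tested.

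Among the genes whose log2(FPKM + 1) followed Cdh5 most closely over the 6 libraries were Olfml2b, Sparc, Tnc, and Cd68, with Pearson correlations of 0.9985 to 0.9989. Those most like Prox1 were Bglap2, Ppil6, Rapgef5, Pgm2l1, and Mios, with 0.9975 to 0.9991. These correlations describe 6 libraries in 2 separate groups and include the difference between the groups.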

How the data were processed

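Distal colon RNA-Seq of 3 Gm31629-/- and 3 WT mice was examined. The authors deposited FPKM values per gene. Their notes name HISAT2 2.1.0, HTSeq 0.6.0, and GRCm38, and their test, DEGseq, was not repeated. Each FPKM column was matched to a mouse by its label. Of the 27546 genes, 27488 were matched to GENCODE M21 symbols. Depth was estimated from the size of a single fragment, and 96.4% to 97.3% of low values came out within 0.1 of a whole number of up to 20 fragments.

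Values were taken as log2(FPKM + 1), genes with a mean of at least 0.5 FPKM were kept (14657), and the genotypes were compared with limma 3.58.1 in R 4.3.3 (eBayes with a trend, two-sided, Benjamini-Hochberg over all tested genes). Script checks used simulated data. Endothelial scaling multiplied the FPKM of each library by a factor. The factors gave all libraries the same mean log2(FPKM + 1) of 24 blood endothelial genes. On the log2 scale they ran from −1.87 to −0.95 in Gm31629-/- libraries and from 1.88 to 2.92 in WT libraries. Nothing states that the mice came from separate cages or litters, so p-values measure the spread between these samples.

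The 10 genes and all lists were chosen with earlier results of these data known. Besides the 10, the text names in each endothelial or mural list the 2 genes of highest mean and the 2 called genes with the largest change and no overlap, and in each other list the 2 of highest mean. Other list genes were named after their values were seen. Promoter windows came from RefSeq. Alternatives covered pseudocount, filter, scaling, variance model, replicate block, thresholds, and leaving out each mouse. limma voom on recovered fragments was chosen after seeing the data.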

Additional observations from a re-analysis of the deposited data

How the results depend on the processing

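All 9 tested endothelial genes stayed called higher under a pseudocount of 0.1, no filter, TPM or median ratio or epithelial scaling, eBayes without a trend, voom on recovered fragments, other thresholds, and without each mouse in turn (adjusted p at most 0.0182). With a minimum mean of 5 FPKM, 4 were called because the other 5 were not tested. Scaled to blood endothelial genes, 0 were called, and Plvap (−0.0908) and Vwf (−0.0106) turned negative. Over all genes, 2704 were called higher and 680 lower. The higher count was 956 with a minimum of 5 FPKM, 4460 under epithelial scaling, 227 under endothelial scaling, and 4238 with no fold threshold. The lower count was 1217 (beside 2233 higher) under median ratio scaling, 250 under epithelial scaling, 12202 under endothelial scaling, and 2138 with no fold threshold. The causes were not tested. Without each mouse in turn, 2285 to 2892 genes were called higher and 513 to 766 lower. For the other gene lists, counts stayed within 1.5 times in 259 of 306 settings.

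The replicate numbers did not pair the mice (correlations of deviations 0.036, −0.108, and 0.014). With the replicate block, 9 endothelial genes, 2709 genes higher, and 648 lower were called, and erythrocyte markers went from 3 to 0. FPKM in WT mice rest on as few as 6 fragments for Tek, so fold changes of the rare receptors are imprecise. With 3 mice a group and no untreated mice, effects of DSS and of genotype without DSS were not measured.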
